A study of Mus musculus with 4 samples.

Results

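The genes described here encode the matrix metalloproteases (Mmp), the ADAMTS proteases (Adamts) and the tissue inhibitors of metalloproteases (Timp), measured in peritoneal macrophages of 2 mouse strains. A gene was included when its symbol was Mmp, Adamts or Timp followed directly by a number, which gave 44 of the 22180 genes tested: 22 Mmp, 18 Adamts and 4 Timp genes. Adamts2 and Mmp15 also fit the symbols and were not analysed here. The arrays compared wild type 129S6/SvEvTac mice (129S6) with C57BL/6 mice (B6, whose substrain the labels do not give), both on regular chow. All mice were 3 months old and were given 1 ml of 4% thioglycollate into the abdomen, an irritant broth that recruits leukocytes there. The cells were washed out after 4 days and kept overnight in a dish in medium with 10% serum before RNA was prepared. Each strain had 1 array of a female pool and 1 of a male pool, each of 3 mice per the labels, so 2 arrays stood for a strain. In what follows "female" and "male" name these arrays, and where a strain's values are given as a pair the female comes first.

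Matrix metalloproteases are zinc endopeptidases that are mostly made as inactive precursors, and between them they cleave collagens, elastin, basement membrane and many cell surface proteins. ADAMTS proteases are secreted relatives with thrombospondin repeats, and several of them cut the large proteoglycans versican and aggrecan. TIMPs bind the active site of these proteases and block it. Macrophages are a known source of several members, including the metalloelastase Mmp12, and the balance of proteases and inhibitors is studied in atherosclerotic plaques because of their fibrous cap.

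Values are log2 probe set intensities, so a difference of 1 is a 2-fold change. Each probe set binds with its own efficiency, and levels are therefore compared between arrays and, apart from a rough background, not between genes. In the female arrays the Y-linked genes, and in the male arrays Xist, read between 2.24 and 4.71, and the upper end of that range is used as the probe background. It rests on 8 readings of other probe sets and is only a rough guide for the members. All 11 general macrophage markers, such as Adgre1 and Csf1r, lay above it in every array. Of the 44 members, 20 lay above it in all 4 arrays, 11 in some and 13 in none.

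The proteolytic system of these macrophages differed between the strains in a few members, and those at least 2-fold apart in both sexes were all lower in B6. Timp1 and Adamts9 were called lower in B6 (limma, adjusted p under 0.05 over all genes), and no member was called higher. That is 2 of 44 members, 4.55%, against 0.852% of all genes (189 called) and, by direction, 0.338% higher and 0.514% lower in B6. At least 2-fold lower in B6 in both sexes were Timp1, Timp3, Mmp2, Mmp23 and Adamts9, 5 of 44 or 11.4%, against 1.72% of all genes. No member was at least 2-fold higher in both sexes, against 1.05% of all genes (2.77% in either direction). The family as a whole did not lean to a side: the median B6 minus 129S6 difference was -0.02 over the members and -0.02 over all genes, and 20 members had a positive and 24 a negative difference. Both B6 arrays were above both 129S6 arrays for 12 members (27.3%, and 22.8% of all genes) and below them for 14 (31.8%, and 26.1% of all genes), and 18 members overlapped. An unadjusted p under 0.05 was found for 11 members, 25%, with 2 higher and 9 lower, against 16.3% of all genes. The 2 calls were close to the threshold: no member was called by limma after quantile normalization (11 had an unadjusted p under 0.05), and 7 were called with a variance prior that follows the level, Mmp12 higher and Timp1, Timp3, Adamts9, Adamts10, Mmp2 and Mmp23 lower (15.9% of members, against 5.66% of all genes in that setting).

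**Figure D1:**
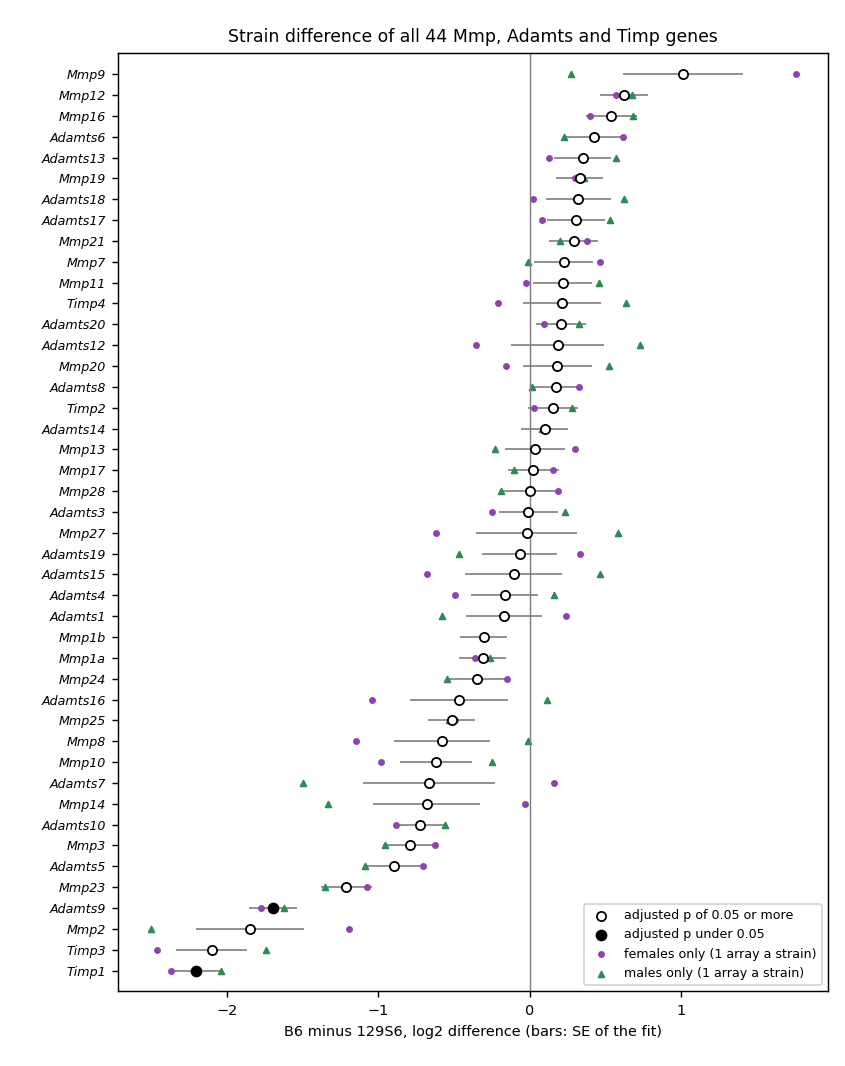
B6 minus 129S6 log2 difference of each of the 44 genes, with the standard error of the limma fit as bars, and the difference within females (dots) and within males (triangles), each from 1 array a strain. Timp1 and Adamts9 (filled) passed at an adjusted p under 0.05, and the 5 lowest genes all lie below -1 in both sexes.

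The inhibitors split into Timp1 and Timp3, whose values were low in B6, and Timp2 and Timp4, whose values were not. Timp1, a secreted inhibitor of most soluble metalloproteases, read 9.33 in the 129S6 female and 8.59 in the 129S6 male array and 6.96 and 6.55 in the female and male B6 arrays. The strains did not overlap, B6 being the lower, and within each strain the male array was the lower. The difference was -2.21 ± 0.17 (SE, n = 2 arrays a strain), a level 4.61-fold lower in B6 (limma adjusted p = 0.042). Here and below, the SE and p-value rest on how far the strain difference disagrees between the sexes. They do not measure the spread between pools of a strain. The call was lost after quantile normalization (adjusted p = 0.0517), when all probe sets entered the adjustment (adjusted p = 0.106), without the 129S6 female array (-1.84, adjusted p = 0.074) and without the B6 male array (-2.00, adjusted p = 0.0686).

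Timp3, which binds to extracellular matrix and also inhibits ADAMTS aggrecanases and the sheddase Adam17, read 7.73 and 7.28 in 129S6 and 5.27 and 5.53 in B6, females before males. The strains did not overlap, and here the B6 male array was slightly above the B6 female array. The difference of -2.10 ± 0.23 did not pass (limma adjusted p = 0.0585, 95% interval -2.74 to -1.46), and it passed in the fit without a sex term (adjusted p = 0.0184). Within females it was -2.46 and within males -1.74. Timp2, which besides inhibiting metalloproteases takes part in the activation of pro-Mmp2 at the cell surface, read 11.65 and 11.58 in 129S6 and 11.67 and 11.86 in B6. These 4 values were close to each other, with a difference of 0.15 (adjusted p = 0.709, 95% interval -0.30 to 0.61). Timp4, a TIMP best known from the heart, read 4.16 and 4.40 in 129S6 and 3.95 and 5.03 in B6. It was above the probe background in the B6 male array alone, and the difference of 0.21 did not pass (adjusted p = 0.735).

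**Figure D2:**
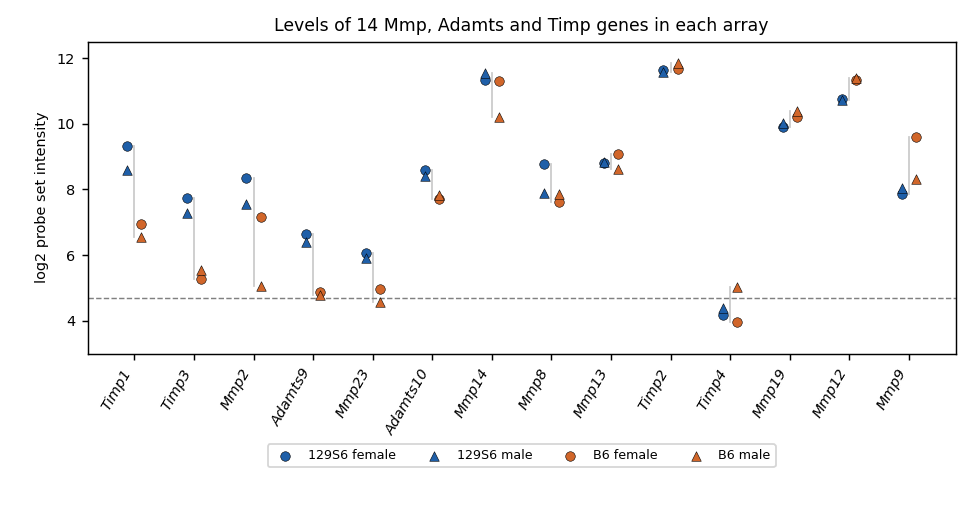
Log2 probe set intensity of 14 named genes in the 4 arrays (129S6 blue, B6 orange, females circles, males triangles), ordered by the strain difference from lowest to highest, with the probe background of 4.71 as a dashed line. Of these genes, only Mmp13 and Timp4 have strains that overlap. The strains lie far apart in both sexes for Timp1, Timp3 and Adamts9, while Mmp2, Mmp14 and Mmp9 show a gap between the B6 female and the B6 male array.

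Of the gelatinases, which degrade denatured collagen and type IV collagen, Mmp2 was low in B6 with a wide gap between the sexes. It read 8.36 in the 129S6 female and 7.55 in the 129S6 male array, and 7.17 and 5.05 in the female and male B6 arrays. The strains did not overlap, but the B6 female array was nearer to the 129S6 male array than to the B6 male array. The difference of -1.85 ± 0.36 did not pass (limma adjusted p = 0.137, 95% interval -2.82 to -0.87). Within females it was -1.19 and within males -2.50.

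Mmp9, the other gelatinase, went the other way in its values. It read 7.84 and 8.06 in 129S6 and 9.60 and 8.33 in B6, females before males. Both B6 arrays were above both 129S6 arrays, and only the B6 female array stood well apart. The difference of 1.01 ± 0.40 did not pass (limma adjusted p = 0.327, 95% interval -0.07 to 2.09). Within females it was 1.76 and within males 0.27.

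Mmp14, the membrane-anchored protease that activates pro-Mmp2, read 11.33 and 11.54 in 129S6 and 11.30 and 10.21 in B6. The B6 female array was level with the 129S6 arrays and the B6 male array was low, as it was for Mmp2, and the difference of -0.68 ± 0.35 did not pass (limma adjusted p = 0.432). Within females it was -0.03 and within males -1.33. The other membrane-type members, Mmp16, Mmp17, Mmp24 and Mmp25, read between 3.31 and 5.18, at or near the probe background, and differed by -0.52 (Mmp25, adjusted p = 0.242) to 0.54 (Mmp16, adjusted p = 0.256). Mmp25 and Mmp17 are held in the membrane by a lipid anchor, and Mmp16 and Mmp24 by a transmembrane segment.

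Among the collagenases, which cut native fibrillar collagen, no gene was called. Mmp13, the collagenase of interstitial tissue in mice, read 8.79 and 8.84 in 129S6 and 9.09 and 8.62 in B6. The B6 female array was the highest and the B6 male array the lowest of the 4, with a difference of 0.03 ± 0.20 (limma adjusted p = 0.953, 95% interval -0.52 to 0.58). Mmp8, the collagenase stored in neutrophil granules, read 8.77 and 7.87 in 129S6 and 7.63 and 7.86 in B6. Only the 129S6 female array stood above the others, and the difference was -0.58 ± 0.32 (adjusted p = 0.451), with -1.15 within females and -0.01 within males. Of 10 neutrophil markers, 6 lay at or below the probe background in both strains, among them Mpo and Elane, and their summed linear intensity was 1711 to 2073 in 129S6 and 1351 to 1594 in B6, higher in the 129S6 female than in the 129S6 male array as for Mmp8. Most of that sum, 84.0% to 87.4%, came from the single marker Csf3r. The part of these cells in the Mmp8 values was not tested. Mmp1a and Mmp1b, both mouse counterparts of human MMP1, read 1.84 to 3.18 and thus below the probe background in all arrays.

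Mmp12, the metalloelastase named for macrophages, had nearly the same level in both sexes of a strain. It read 10.76 and 10.71 in 129S6 and 11.32 and 11.38 in B6. The B6 arrays were above the 129S6 arrays by about the same step in females and in males (0.57 and 0.68), 1.54-fold on average, and the difference of 0.62 ± 0.16 did not pass (limma adjusted p = 0.194, 95% interval 0.19 to 1.05) but was called with the prior that follows the level (adjusted p = 0.0198). Mmp7, or matrilysin, read at or below the probe background in every array. The stromelysins Mmp3 and Mmp10, which activate other pro-metalloproteases, read 3.10 to 4.95 with differences of -0.79 (adjusted p = 0.163) and -0.62 (adjusted p = 0.321), and Mmp11, a stromelysin activated inside the cell, read 5.05 to 5.51 with a difference of 0.22 (adjusted p = 0.642).

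Of the remaining metalloproteases, Mmp19, which cleaves basement membrane components, read 9.89 and 10.02 in 129S6 and 10.19 and 10.37 in B6. The strains did not overlap, although the step was small (0.33 ± 0.16, limma adjusted p = 0.399, 95% interval -0.10 to 0.75). Mmp23, a membrane-tethered member that lacks the hemopexin domain of most others, read 6.06 and 5.92 in 129S6 and 4.98 and 4.57 in B6. The B6 arrays lay near the probe background, the male just below it. The difference of -1.21 ± 0.17 did not pass (adjusted p = 0.0811, 95% interval -1.67 to -0.75), and it was -1.08 within females and -1.35 within males. Mmp20 (enamelysin) and Mmp21 stayed below the probe background, and Mmp27 and Mmp28 read 5.28 to 6.88 with differences of -0.02 and 0.00 (adjusted p = 0.983 and 0.999).

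Among the ADAMTS proteases that cut proteoglycans, Adamts9, which cleaves versican and aggrecan, was the called gene. It read 6.64 and 6.40 in 129S6 and 4.86 and 4.78 in B6. The B6 arrays were just above the probe background and far below both 129S6 arrays, and the sexes lay close together. The difference was -1.70 ± 0.16, a level 3.24-fold lower in B6 (limma adjusted p = 0.0454). Its size may be limited by the background, since both B6 values lay close to it. The call was lost after quantile normalization (adjusted p = 0.0546), over all probe sets (adjusted p = 0.115) and without the 129S6 female array (-1.58, a fit with no sex term).

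The other 6 members of this role, Adamts1, Adamts4, Adamts5, Adamts8, Adamts15 and Adamts20, were not called. Adamts1 was the only one of them above the probe background in all arrays, with a difference of -0.17 (limma adjusted p = 0.782). Adamts5, the main aggrecanase of mouse cartilage, had the largest difference of these 6 (-0.90, adjusted p = 0.143) and was above the probe background in the 129S6 female array alone, at 4.86 against 4.35, 4.15 and 3.26 in the 129S6 male, B6 female and B6 male arrays. Adamts4, Adamts8, Adamts15 and Adamts20 were below it in every array.

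Adamts10, which binds fibrillin microfibrils, read 8.58 and 8.40 in 129S6 and 7.69 and 7.84 in B6. Both B6 arrays were lower by a like amount, and the difference of -0.72 ± 0.17 did not pass (limma adjusted p = 0.181, 95% interval -1.20 to -0.25). Adamts6, its closest relative, had a difference of opposite sign (0.42, adjusted p = 0.363). Of the pair that cleaves cartilage oligomeric matrix protein, Adamts7 read 6.31 and 6.27 in 129S6 and 6.47 and 4.77 in B6, so the B6 male array alone was low (-0.67, adjusted p = 0.517). Its difference was 0.16 within females and -1.50 within males. Adamts12, the other of that pair, read 4.47 to 5.20 (0.18, adjusted p = 0.809).

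The procollagen N-propeptidases Adamts3 and Adamts14, which trim new collagen, differed by -0.01 and 0.10, with 95% intervals of -0.54 to 0.52 and -0.33 to 0.52. Adamts3 read 3.35 to 3.71, below the probe background in every array, so its difference rests on background values. Adamts13, the protease of von Willebrand factor, differed by 0.35 (adjusted p = 0.449) at levels of 4.54 to 5.11. Adamts16, Adamts17, Adamts18 and Adamts19 differed by -0.47 to 0.32, and Adamts18 and Adamts19 were below the probe background in every array.

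Like the 5 members at least 2-fold lower in B6 in both sexes, most markers of fibroblasts, cells that make extracellular matrix, were lower in B6. Of 8 fibroblast markers, 7 (87.5%) were at least 2-fold lower in B6 in both sexes, against 1.72% of all genes. Dcn, Pdgfra and Sparc were called (37.5%, against 0.852% of all genes), and the median difference was -2.29. The summed linear intensity of the 8 markers was 3354 to 3700 in the 129S6 arrays and 504.1 to 801.5 in the B6 arrays. Lum, the remaining marker, lay below the probe background in both strains. All 8 fibroblast markers were higher in the B6 male than in the B6 female array, as was Timp3, whereas Timp1, Mmp2, Mmp23 and Adamts9 were lower in the B6 male array. Markers of resident large peritoneal macrophages were also lower in B6, with 4 of 10 called (40%, against 0.852% of all genes). At least 2-fold lower in both sexes were 8 of the 10 (80%, against 1.72% of all genes). Their summed intensity was 10870 to 16630 in 129S6 against 2307 to 2412 in B6. None of the 11 general macrophage markers was called, and 8 (72.7%) had an unadjusted p under 0.05 in either direction, against 16.3% of all genes. The median difference of the 11 was 0.02, with a range from -1.65 (Cd14, at least 2-fold lower in both sexes) to 1.72 (Fcgr1). The part of these cells in the differences of the members was not tested, and in pooled cells fewer cells of a type and less RNA per cell cannot be told apart.

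**Figure D3:**
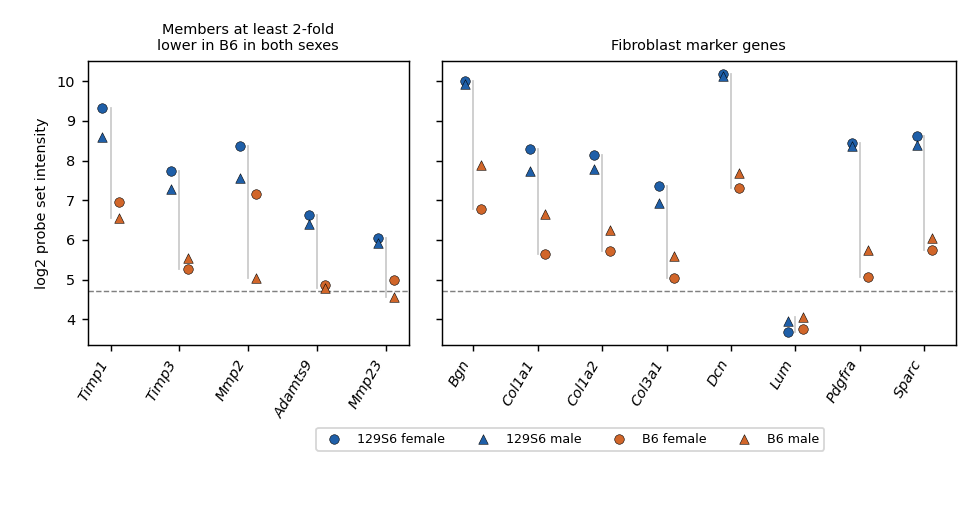
Log2 probe set intensity in the 4 arrays for the 5 members at least 2-fold lower in B6 in both sexes (left) and for 8 fibroblast markers (right), with the probe background as a dashed line. For 7 markers the B6 arrays lie below the 129S6 arrays with the B6 male (triangle) above the B6 female (circle), and of the 5 members Timp3 shares that order in B6.

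Male and female arrays were compared in the same fit, and none of the 44 members was called for sex by limma (3 of 22180 genes, 0.0135%, were). An unadjusted p under 0.05 was found for 4 of the 44 members, 9.09%, and for 5.22% of all genes. The largest male minus female differences were -1.46 ± 0.36 for Mmp2 and -0.87 ± 0.43 for Adamts7 (limma adjusted p = 0.860 for each). The gap lay mainly within B6. There, 6 of 44 members (13.6%) differed by at least 1 between the male and the female array, against 2.13% of all genes: Mmp2 (-2.12), Adamts7 (-1.70), Mmp9 (-1.27), Mmp14 (-1.09) and Mmp3 (-1.03) were lower and Timp4 (1.08) was higher in the male. Both B6 values of Mmp3 and the B6 female value of Timp4 were below the probe background, so the sizes of their gaps were not measured above it, and the other 4 genes were above it in all arrays. Within 129S6 none of the 44 members differed by that much, against 1.91% of all genes. With 1 array per strain and sex these gaps could not be tested, and a property of the mice cannot be told apart from one of the pool or array.

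The 10 Mmp genes that lie side by side on chromosome 9, in the order Mmp13, Mmp12, Mmp1b, Mmp3, Mmp1a, Mmp10, Mmp8, Mmp27, Mmp20 and Mmp7, had no called gene. Their differences ran from -0.79 (Mmp3) to 0.62 (Mmp12) with a median of -0.16, and 4 of them were positive. Neighbouring genes had differences of either sign, and 2 of the 10 (20%) had an unadjusted p under 0.05, against 16.3% of all genes. Mmp1a, Mmp1b, Mmp7 and Mmp20 lay at or below the probe background in every array, and Mmp3 and Mmp10 in some. The signs of their differences therefore rest in whole or in part on values at the background. Most genes of the cluster shared a promoter element. AP-1, a dimer of Fos and Jun proteins, is known to bind TGAGTCA, which reads TGACTCA on the opposite strand. RefSeq promoter windows (GRCm38.p6, 250 bases before to 50 after an annotated start) were at hand for 30 of the 44 members, and the element was searched on both strands. It was in a window of 7 of the 10 cluster genes and of 0 of the 20 others, against 5.2% of all 32851 windows. Mmp8, Mmp27 and Mmp20 had no match. Without a window were Adamts4, Adamts5, Adamts6, Adamts7, Adamts8, Adamts10, Adamts15, Adamts16, Adamts19, Mmp2, Mmp9, Mmp16, Mmp17 and Mmp19.

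The 120 bases before the start of 4 cluster genes are given to show the element, in capitals, in the genes with the highest and lowest differences of the cluster (Mmp12 and Mmp3), in the collagenase Mmp13 and in the stromelysin Mmp10. Each is written in the direction of its gene.
Mmp13, chr9:7272394-7272513, plus strand: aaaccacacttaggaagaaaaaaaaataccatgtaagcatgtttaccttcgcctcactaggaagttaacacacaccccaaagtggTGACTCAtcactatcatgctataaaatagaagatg
Mmp12, chr9:7347254-7347373, plus strand: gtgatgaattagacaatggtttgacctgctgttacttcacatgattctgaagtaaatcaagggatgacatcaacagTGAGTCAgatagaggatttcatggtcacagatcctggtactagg
Mmp3, chr9:7445702-7445821, plus strand: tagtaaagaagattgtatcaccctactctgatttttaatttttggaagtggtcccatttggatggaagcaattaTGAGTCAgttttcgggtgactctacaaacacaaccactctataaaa
Mmp10, chr9:7502222-7502341, plus strand: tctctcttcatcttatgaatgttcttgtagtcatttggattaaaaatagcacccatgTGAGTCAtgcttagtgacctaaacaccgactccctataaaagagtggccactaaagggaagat
The element began 35 bases before the start in Mmp13, 44 in Mmp12, 46 in Mmp3, 63 in Mmp10 and Mmp7, 73 in Mmp1a and 93 in Mmp1b. In Mmp12 and Mmp7 it was found at 1 of 2 annotated starts. Genes that hold the element had positive and negative differences between the strains, as the values above show. Of these genes, only Mmp12 and Mmp13 lay above the probe background in all arrays. Mmp1a, Mmp1b and Mmp7 lay at or below the background in every array, and Mmp3 and Mmp10 in some, so the sizes of their differences are limited by it.

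**Figure D4:**
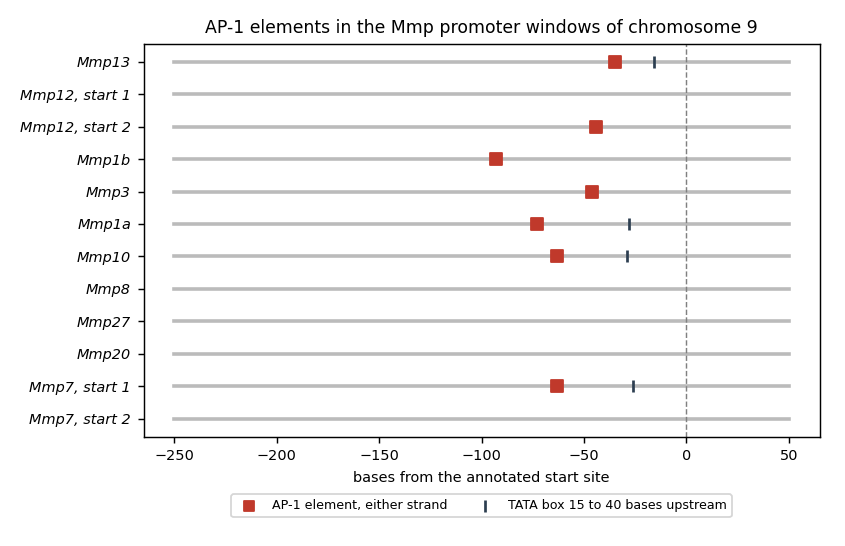
Positions of the AP-1 element (squares) and of a TATA box 15 to 40 bases upstream (bars) in the promoter windows of the 10 chromosome 9 Mmp genes, as bases from the annotated start site, with a row for each start. The element lies between 35 and 93 bases upstream in 7 genes, and Mmp8, Mmp27 and Mmp20 have no match.

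The 150 bases before the start of the called genes Timp1 and Adamts9, and of Timp3, are given because these genes had the largest strain differences among members with a window. They hold no TGAGTCA and are therefore all in lower case. The related letters TGAGTAA, which read TTACTCA on the opposite strand, were found in the Timp1 window after the start, at base 27 of the transcript, and in 2.68% of all windows, and in no other member.
Timp1, chrX:20870016-20870165, plus strand: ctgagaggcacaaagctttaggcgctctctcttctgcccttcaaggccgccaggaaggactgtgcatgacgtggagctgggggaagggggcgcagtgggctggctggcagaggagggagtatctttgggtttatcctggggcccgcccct
Adamts9, chr6:92943535-92943684, minus strand: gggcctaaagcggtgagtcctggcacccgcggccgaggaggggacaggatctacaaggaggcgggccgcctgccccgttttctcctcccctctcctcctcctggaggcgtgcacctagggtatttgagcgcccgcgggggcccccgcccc
Timp3, chr10:86300262-86300411, plus strand: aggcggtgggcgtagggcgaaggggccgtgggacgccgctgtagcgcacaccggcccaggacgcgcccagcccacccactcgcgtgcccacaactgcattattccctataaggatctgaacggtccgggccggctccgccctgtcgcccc
These stretches come from the reference assembly, so they say nothing of bases that differ between the strains.

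Other genes of the same pathway were compared in lists by role. None of 10 ADAM sheddases, relatives that release membrane proteins, was called. An unadjusted p under 0.05 was found for 3 of the 10 (30%), against 16.3% of all genes. The largest differences among them were 1.45 for Adam33 (limma adjusted p = 0.0594) and -0.69 for Adam12 (adjusted p = 0.198). Of 7 ADAMTS-like proteins, which have the ADAMTS tail but no protease domain, none was called and 1 (14.3%) had an unadjusted p under 0.05. The largest differences were -1.03 for Adamtsl4 (adjusted p = 0.106) and -0.37 for Adamtsl5 (adjusted p = 0.375).

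Activators and regulators of metalloproteases, 19 genes, had no call either, and 2 (10.5%) had an unadjusted p under 0.05, against 16.3% of all genes. The plasminogen activators Plat and Plau, which start the plasmin cascade that can activate pro-metalloproteases, had the largest differences, of opposite sign (-1.48, adjusted p = 0.139, and 1.14, adjusted p = 0.130, limma). Of 5 elastolytic cathepsins, lysosomal proteases that also degrade elastin and collagen, none was called and 1 (20%) had an unadjusted p under 0.05. Of these, Ctsk (1.24, adjusted p = 0.079) had the largest difference with higher values in both B6 arrays, followed by Ctss (0.18, adjusted p = 0.641).

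Of the matrix substrates, 15 of 17 were measured, and Vcan, the versican that Adamts9 cleaves, was called lower. It read 7.88 and 6.84 in 129S6 and 5.29 and 4.71 in B6. Both B6 arrays were below both 129S6 arrays, by -2.36 ± 0.19 (limma adjusted p = 0.042). The B6 male value of Vcan lay at the probe background, so the size of this difference may be limited by it. The list's median difference was -0.66, with 11 of 15 negative. An unadjusted p under 0.05 was found for 9 of the 15 (60%), 1 higher and 8 lower, against 16.3% of all genes. Col1a2 had the next largest difference (-1.97, adjusted p = 0.0783). Several of these genes, such as Col1a1 and Col1a2, are also fibroblast markers, and Vcan stood on the monocyte and small peritoneal macrophage list as well. Of the 7 genes of that list 3 were called (42.9%, against 0.852% of all genes). Vcan was lower and Mrc1 (2.80, adjusted p = 0.0377) and Retnla (3.30, adjusted p = 0.0400) were higher in B6.

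Il1b and Il6, inflammatory cytokines known to raise metalloprotease expression, were called lower in B6. That is 2 of 11 cytokines (18.2%), against 0.852% of all genes. An unadjusted p under 0.05 was found for 4 of the 11 (36.4%), all lower, against 16.3% of all genes. Il1b read 10.37 and 8.80 in 129S6 and 5.32 and 4.13 in B6 (-4.86 ± 0.18, limma adjusted p = 0.0307). Il6 read 6.90 and 5.36 in 129S6 and 3.95 and 3.00 in B6 (-2.65 ± 0.21, adjusted p = 0.042). Both B6 values of Il6 and the B6 male value of Il1b were below the probe background, so the sizes of these differences are limited by it. Of 10 measured AP-1, ETS and NF-kappa B factors none was called and 3 (30%) had an unadjusted p under 0.05. Ets2 (-1.74, adjusted p = 0.165) and Fosl2 (-1.28, adjusted p = 0.0784) had the largest differences.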

How the data were processed

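Pooled macrophage RNA (250 ng of total RNA) was labelled and hybridized to mouse whole-transcript arrays from Affymetrix. The authors deposited log2 intensities per probe set, computed in Affymetrix Expression Console. Its version, summarization and background correction are not given in the sources used here. The array medians were 4.85 to 4.87, and the values were used as deposited. The labels give 3 mice a pool and the methods of the study a larger number. Of 41345 probe sets, 23521 carried a single gene symbol in the platform annotation, 1820 several and 16004 were not listed. Single-symbol probe sets were used, with the highest mean kept for 1082 genes that had several. Of them, 23328 matched RefSeq by gene number and no symbol changed.

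Strain (B6 minus 129S6) and sex (male minus female) were additive terms of a linear model fitted over all 22180 genes with limma 3.58.1 in R 4.3.3. The residual degrees of freedom were 1, plus 3.18 from the prior. P-values were adjusted by the Benjamini-Hochberg method over all genes and called under 0.05. They measure how far the strain difference disagrees between females and males, together with the prior. Spread between arrays that both strains share goes into the sex term, and spread between pools of the same strain and sex was not measured. With 4 arrays the precision is limited, and with 1 array per strain and sex no interaction term could be fitted. The script was tested on simulated data. The study averaged the sexes and named no test for these arrays. Members given array by array were the called genes, those at least 2-fold different with the same sign in both sexes, all Timp genes and the 10 with the highest mean. Members and lists were chosen with earlier results of these data known. Alternatives were strain as the only term, a trended prior, a level filter, the mean of probe sets, all probe sets, quantile normalization and each array left out.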

Additional observations from a re-analysis of the deposited data

Results flagged for a closer look

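Mmp13 and Timp4 had strain differences of opposite sign in the sexes, and for neither was that contrast tested, since each strain and sex had 1 array. The B6 minus 129S6 difference of Mmp13, a collagenase, was 0.30 in females and -0.23 in males, a gap of 0.52 (female minus male). That of Timp4, an inhibitor, was -0.21 in females and 0.63 in males, a gap of -0.84, with 3 of its 4 values at or below the probe background. Of all 44 members, 16 had opposite signs in the sexes, a share like that of all genes (8113 of 22180). Some members outside the figure had larger gaps with opposite signs, such as Adamts7 (1.66) and Mmp27 (-1.20).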

How the results depend on the processing

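The number of members called for strain was 2, and it was 7 with a variance prior that follows the level, 4 (of 20 members) among genes at or above the median level, 0 over all probe sets and 0 after quantile normalization. Leaving out each array in turn gave 0 (without the 129S6 female) to 6 (without the B6 female). The number of all genes called was 189, and it was 431 with strain as the only term, 1256 with the prior that follows the level, 589 among genes at or above the median level, 0 over all probe sets (5707 of 41345 at an unadjusted p under 0.05) and 81 after quantile normalization. Leaving out each array gave 84 (without the 129S6 female) to 564 (without the B6 female), and 321 without the 129S6 male. The median difference of the members was -0.10 among genes at or above the median level and -0.10 (without the B6 male) to -0.018 (without the B6 female) when each array was left out. Leaving out arrays gave Mmp13 -0.20 (without the B6 female) to 0.27 and Timp4 -0.33 (without the B6 male) to 0.75, and no other named member changed sign in these settings. The cause of these shifts was not tested. No member was called for sex under any of the 5 alternatives run for it. Fits without an array had no sex term and left 1 array in a strain, so strain and sex are mixed in them. The only block the design offers, sex, is a term of the model, so the strain difference is the mean of the differences within females and within males. The labels carry no replicate numbers for any other pairing. The probe background limits the 13 members that lay at or below it in every array and the 11 that lay above it in only some.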

Other observations

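Timp1, Adamts9, Mmp2, Mmp23, Adamts5, Mmp1a and Mmp1b read highest in the 129S6 female array, then in the 129S6 male, the B6 female and the B6 male array. These are 7 of 44 members (15.9%), and 8.17% of all genes had that order. The order was chosen after the values were seen and was not tested, and Mmp1a and Mmp1b were below the probe background in all arrays, Adamts5 in 3 and Mmp23 in 1, so their order rests in whole or in part on values at the background.

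A probe set that the annotation assigns to both Mmp24 and a neighbouring transcript was left out of the comparison. It read 7.92 and 7.37 in 129S6 and 6.87 and 7.34 in B6 (-0.54), well above the background, whereas the probe set of Mmp24 alone read 4.17 to 4.71. Further probe sets of Mmp7, Mmp11, Adamts8 and Adamts14 read at or below the probe background and differed by -0.13 to 0.26.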
